A study of Mus musculus with 8 samples.

Results

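The T cell receptor complex and its coreceptors were followed through 10 genes: Cd3d, Cd3e, Cd3g, Cd247, Cd4, Cd8a, Cd8b1, Lat, Lck and Zap70. Members were all non-control probes whose accession mapped to one of these genes, and their processed signal was read on all 8 arrays. That gave 13 of 41174 probes on the array, for 9 of the 10 genes. No probe had an accession of Cd8b1, which was not analysed here. Cd247 and Cd8a had 3 probes each and the other 7 genes 1 each. The genes were selected on the KO minus WT difference of their signal in these same arrays, among values known from earlier work, so that difference is given below as a description, with no test.

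The study measured cells sorted from breast tumours as positive for both F4/80 and CD45 and labelled tumour-associated macrophages. Tumours grew for about 21 days from PyMT breast cancer cells placed in the mammary tissue of C57BL/6 mice. The KO group (4 samples) came from ATF3 KO hosts and the WT group (4 samples) from wild type hosts. The implanted PyMT line, the strain and the sort were common to both groups, and the labels name a deletion in the host alone. No age is given, and the labels do not say whether the samples of a group came from separate mice, so the spread between samples may be partly technical. Samples carry the numbers 1 to 4 in each group. Samples numbered 1 and 2 were on the first slide and those numbered 3 and 4 on the second.

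A T cell recognises antigen through a receptor whose variable chains do not signal by themselves. The CD3 chains and the zeta chain carry the signalling motifs of the complex. CD4 and CD8 bind MHC molecules and bring the kinase LCK to the receptor, LCK phosphorylates the motifs, ZAP70 docks on them, and LAT is the membrane scaffold that ZAP70 phosphorylates. NK cells also use the zeta chain, and in the mouse CD4 and CD8 alpha also mark subsets of dendritic cells. A sort on F4/80 and CD45 is a selection for macrophages, and CD45 is also on T cells. In such a bulk sample a change in the share of T cells and a change in RNA per T cell cannot be told apart.

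Values are log2 of the processed signal relative to the 75th percentile of the same array, so 0 is the level of that percentile. Across arrays the 75th percentile was 619 to 926 signal units, the median local background 26.0 to 31.0, and the software marked 63.7% to 68.0% of non-control spots as above background. Atf3 had 1 probe, which read 4.86 to 5.51 in samples labelled KO and 4.51 to 4.99 in those labelled WT. It averaged 5.05 ± 0.31 in KO and 4.80 ± 0.21 in WT (SD, n = 4 each). The sources used here do not place this probe relative to the deleted part, so it does not check the labels, and KO and WT below mean the groups as labelled. The sort markers Adgre1, which encodes F4/80, and Ptprc, which encodes CD45, were at 3.47 to 4.68 and 3.70 to 4.92 in KO, against 3.33 to 4.71 and 3.78 to 4.93 in WT.

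Cd3g, Cd3d and Cd3e are neighbours on chromosome 9, and their promoters are shown because Cd3d and Cd3g moved together over the arrays while Cd3e did not. Cd3g and Cd3d are transcribed away from each other, with 1338 bases between their annotated gene boundaries, and Cd3e lies beyond Cd3d. The promoter windows are RefSeq's, build GRCm38.p6, and run from 250 bases before the start site to 50 after it, 5′ to 3′. Capitals mark, on either strand, the ETS letters AGGAAG, the RUNX letters TGTGGT, the letters of GATA factors AGATAA, the letters of the TATA box TATAAA, the AP-1 letters TGACTCA and the letters of the cyclic AMP response element (CRE) TGACGTCA.
Cd3d promoter, chr9:44981536-44981835, plus strand: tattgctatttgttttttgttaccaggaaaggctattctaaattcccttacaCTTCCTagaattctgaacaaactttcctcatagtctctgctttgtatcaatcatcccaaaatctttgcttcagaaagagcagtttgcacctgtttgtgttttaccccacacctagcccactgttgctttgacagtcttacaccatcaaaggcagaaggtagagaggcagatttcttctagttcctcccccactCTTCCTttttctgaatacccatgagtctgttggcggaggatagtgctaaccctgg
Cd3g promoter, chr9:44980382-44980681, minus strand: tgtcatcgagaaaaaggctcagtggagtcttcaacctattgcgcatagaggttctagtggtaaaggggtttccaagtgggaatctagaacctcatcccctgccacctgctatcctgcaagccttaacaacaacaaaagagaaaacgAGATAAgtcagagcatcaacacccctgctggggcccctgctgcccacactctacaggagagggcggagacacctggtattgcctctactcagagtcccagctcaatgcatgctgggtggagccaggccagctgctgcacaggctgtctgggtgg
Cd3e promoter, chr9:45009562-45009861, minus strand: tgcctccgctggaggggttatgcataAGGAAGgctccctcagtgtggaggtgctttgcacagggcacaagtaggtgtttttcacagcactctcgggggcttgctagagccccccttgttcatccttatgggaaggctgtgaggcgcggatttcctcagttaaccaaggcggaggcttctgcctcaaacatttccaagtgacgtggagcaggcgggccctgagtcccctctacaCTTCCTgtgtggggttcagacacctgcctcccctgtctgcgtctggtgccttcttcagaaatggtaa

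The ETS letters stood at -198 and -5 from the start site of Cd3d and at -224 and -17 from that of Cd3e. Those letters were absent from the Cd3g window, whose capitals are 1 GATA match at -104. Of 32851 promoter windows of the same length, 35.4% held the ETS letters and 11.2% the GATA letters. Over all members, 11 windows were found for 8 genes, with none for Cd4 or Cd8b1. The AP-1 letters were in 0 of the 11 windows, against 5.20% of all windows. The CRE letters, the textbook recognition sequence of the ATF and CREB family, were in 1 of the 11 windows, the upstream one of 3 for Zap70, which is shown for that reason.
Zap70 promoter, chr1:36761548-36761847, plus strand: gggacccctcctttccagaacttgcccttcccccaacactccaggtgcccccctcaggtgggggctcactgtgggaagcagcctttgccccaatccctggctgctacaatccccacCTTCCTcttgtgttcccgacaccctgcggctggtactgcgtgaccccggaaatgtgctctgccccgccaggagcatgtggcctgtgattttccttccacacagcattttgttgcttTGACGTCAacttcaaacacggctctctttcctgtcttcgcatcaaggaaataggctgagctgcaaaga

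In that window the CRE letters stood at -18 and the ETS letters at -134, and 1.79% of all windows held the CRE letters. No CD3, Cd247, Cd8a, Lat or Lck window held them. A match of letters is a description of the sequence and not a binding site.

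Most of the complex read higher in KO than in WT, by 1.42-fold for Cd3g to 2.08-fold for Cd247 probe 1 between group means. That upper end was not kept with normexp background correction, where Cd247 probe 1 differed by 0.03 in log2. Cd247 probe 3, well above background on 2 of the WT arrays, is given apart. Cd3e was near level at 1.04-fold and Cd4 was lower. The groups overlapped for every probe. On the mean, 12 of 13 member probes were higher in KO, covering 8 of 9 genes, and Cd4 was the exception. With normexp background correction 8 of 13 were higher and 4 of those 12 turned sign. Over the 27118 probes tested, 49.3% were higher in KO, and 37.0% with normexp. The median difference, KO minus WT, was 0.57 for the members and -0.005 for all probes tested, and with normexp it was 0.13 and -0.16. Higher values in KO in 4 of 4 same-numbered pairs were found for 8 of 13 member probes, covering 6 genes, and for 7.64% of all probes. Every KO array stood above every WT array for 0 of 13, against 0.826% of all probes, and below for 0 of 13, against 1.31%. These counts describe the contrast by which the members were chosen. In the fit over all probes, limma called 0 of 27118 probes between the genotypes (0%), the smallest adjusted p was 0.518, and 912 (3.36%) had an unadjusted p under 0.05.

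**Figure D1:**
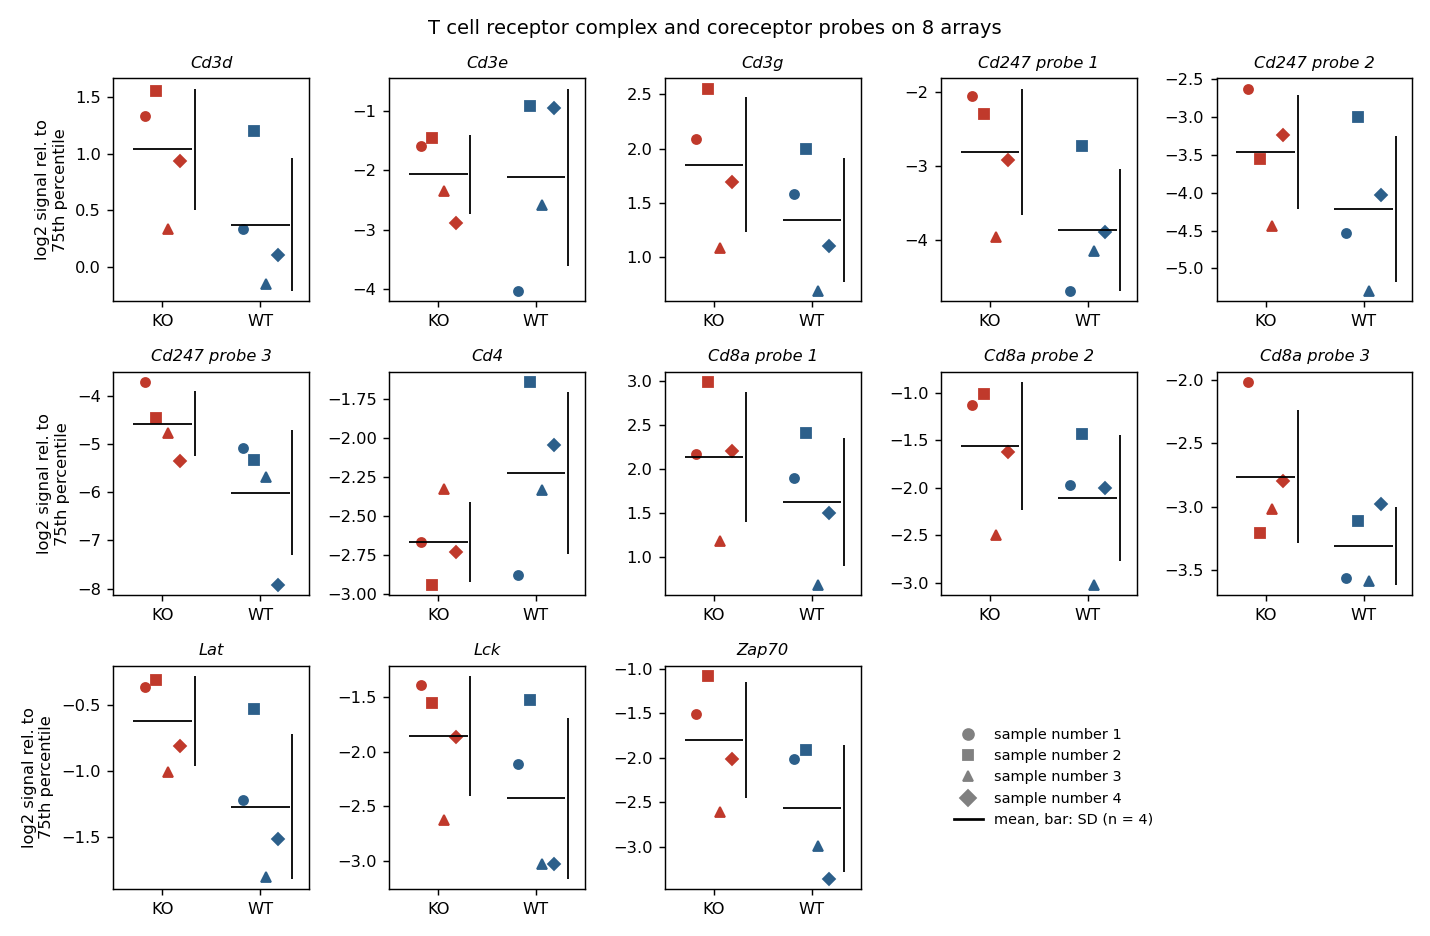
Each panel is 1 member probe, with the KO samples in red left of the WT samples in blue and the sample number as the marker shape. The vertical axis is log2 signal relative to the array's 75th percentile, with lines for means and SDs (n = 4). All 13 panels show overlapping groups, and WT 2 is the highest WT sample in most of them.

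The CD3 chains form dimers that every mature T cell receptor needs to reach the surface. Cd3d, whose product pairs with CD3 epsilon, read 1.33, 1.55, 0.34 and 0.94 in KO samples 1 to 4, against 0.33, 1.20, -0.14 and 0.11 in WT samples 1 to 4. The group means were 1.04 ± 0.53 in KO and 0.37 ± 0.58 in WT (SD, n = 4 each), a difference of 0.67 (SE 0.37), or 1.59-fold. KO was higher in every pair, by 0.35 to 1.00, yet KO 3 lay level with WT 1, and WT 2 lay above KO 4.

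Cd3g, which encodes the gamma chain, read 2.09, 2.55, 1.08 and 1.69 in KO, against 1.58, 1.99, 0.69 and 1.10 in WT. It averaged 1.85 ± 0.62 in KO and 1.34 ± 0.57 in WT (SD, n = 4 each), a difference of 0.51 (SE 0.39). Its 4 pair differences were the most even of all members, 0.50, 0.56, 0.39 and 0.59, while the samples within a group ranged far more widely than that. Samples numbered 3 were lowest in both groups and those numbered 2 highest.

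Cd3e, which encodes the epsilon chain shared by both CD3 dimers, went its own way. It read -1.59, -1.45, -2.35 and -2.88 in KO, against -4.03, -0.91, -2.58 and -0.94 in WT. WT samples spanned the whole range, with WT 1 below every other sample and WT 2 and WT 4 above every other. Means were -2.07 ± 0.67 in KO and -2.12 ± 1.50 in WT (SD, n = 4 each), a difference of 0.05 (SE 0.73). The pairs gave 2.44, -0.54, 0.23 and -1.93, and the sign turned between the slides, 0.95 on the first and -0.85 on the second.

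Cd247 encodes the zeta chain, the longest signalling tail of the complex. Its probe 1 read -2.05, -2.29, -3.96 and -2.92 in KO, against -4.69, -2.72, -4.15 and -3.90 in WT, a difference of 1.06 (SE 0.54). All of KO 1, KO 2 and KO 4 stood above WT 1, WT 3 and WT 4, and KO 3 lay among those WT samples. Probe 2 read -2.62, -3.55, -4.43 and -3.24 in KO, against -4.53, -2.99, -5.30 and -4.04 in WT, a difference of 0.75 (SE 0.55), and pair 2 gave -0.56.

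Probe 3 of Cd247 was near the limit of the arrays, well above background on 3 KO and 2 WT arrays, whereas the other 12 member probes were so on all 8. It read -3.72, -4.47, -4.76 and -5.36 in KO, against -5.09, -5.34, -5.69 and -7.93 in WT, a difference of 1.43 (SE 0.65) that fell to 0.80 without WT 4. Before scaling, its signal was 48.5, 41.8, 30.2 and 19.2 units in KO, against 18.2, 16.3, 14.1 and 3.24 units in WT. The unscaled groups did not touch, and after scaling KO 4 lay below WT 1 and level with WT 2.

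The coreceptors differed from each other. Cd8a encodes the CD8 alpha chain of cytotoxic T cells. Its probe 1 read 2.17, 2.99, 1.17 and 2.20 in KO, against 1.89, 2.40, 0.68 and 1.50 in WT, with means of 2.13 ± 0.74 in KO and 1.62 ± 0.73 in WT (SD, n = 4 each) and a difference of 0.51 (SE 0.47). KO 2 was highest and WT 3 lowest, and KO 3 fell below WT 1, WT 2 and WT 4. Probe 2 read -1.13, -1.01, -2.49 and -1.62 in KO, against -1.97, -1.43, -3.02 and -2.00 in WT, a difference of 0.54 (SE 0.43). Probes 1 and 2 were higher in KO in 4 of 4 pairs, and their differences dropped to 0.20 and 0.24 when WT 3 was left out.

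Probe 3 of Cd8a, printed 10 times on each array, did not follow the other probes of the gene. It read -2.02, -3.21, -3.02 and -2.80 in KO, against -3.56, -3.11, -3.59 and -2.98 in WT, a difference of 0.55 (SE 0.30) that was 0.30 without KO 1. The correlation over the 8 arrays was 0.95 between probes 1 and 2, but 0.30 between probes 1 and 3 and 0.55 between probes 2 and 3. Its replicate spots had an SD of 0.086 to 0.14 within an array, while the array means ran from -3.59 to -2.02.

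Cd4, the coreceptor of helper T cells, was the member lower in KO. It read -2.67, -2.95, -2.33 and -2.73 in KO, against -2.88, -1.65, -2.34 and -2.05 in WT, and averaged -2.67 ± 0.26 in KO and -2.23 ± 0.52 in WT (SD, n = 4 each), a difference of -0.44 (SE 0.29). Its 10 spots had a median SD of 0.11 within an array. WT 2 and WT 4 were above all KO samples, WT 3 was level with KO 3, and WT 1 was below 3 of the KO samples. The pairs gave 0.21, -1.30, 0.01 and -0.69, and the difference was -0.25 without WT 2.

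**Figure D2:**
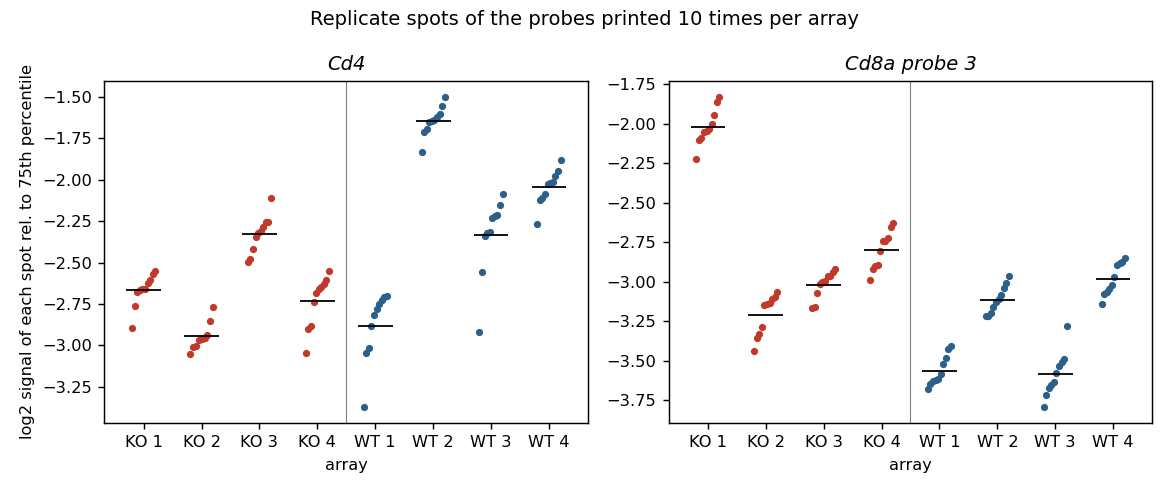
Each dot is 1 replicate spot of the Cd4 probe (left) and of Cd8a probe 3 (right), as log2 signal relative to the 75th percentile, and lines are array means. KO arrays stand left of WT arrays. Spots of 1 array lie closer together than most arrays do, with Cd4 highest on WT 2 and Cd8a probe 3 highest on KO 1.

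The kinases and the adaptor followed the CD3 delta and gamma chains. Lck, the kinase that starts signalling, read -1.39, -1.55, -2.63 and -1.86 in KO, against -2.11, -1.53, -3.03 and -3.03 in WT, a difference of 0.57 (SE 0.42). Here WT 2 was among the KO samples, pair 2 gave -0.02, and the difference was 0.37 without WT 4. Zap70, the kinase that docks on phosphorylated CD3 and zeta chains, read -1.51, -1.08, -2.61 and -2.01 in KO, against -2.02, -1.91, -2.99 and -3.36 in WT. Its means were -1.80 ± 0.66 in KO and -2.57 ± 0.72 in WT (SD, n = 4 each), a difference of 0.77 (SE 0.44), or 1.70-fold, with KO 3 below WT 1 and WT 2.

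Lat, the scaffold downstream of ZAP70, read -0.36, -0.31, -1.01 and -0.81 in KO, against -1.22, -0.53, -1.81 and -1.52 in WT. It averaged -0.62 ± 0.34 in KO and -1.27 ± 0.55 in WT (SD, n = 4 each), a difference of 0.65 (SE 0.31). WT 2 was the exception that kept the groups from separating, since all KO samples lay above WT 1, WT 3 and WT 4.

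**Figure D3:**
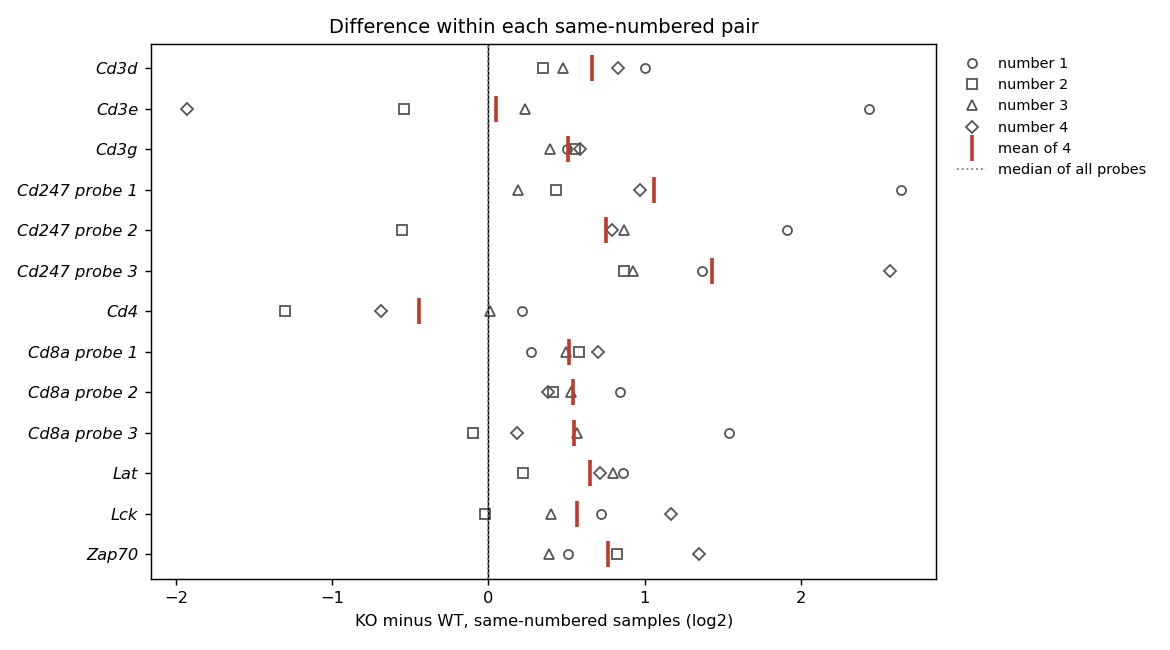
Each marker is the KO minus WT difference (log2) of 1 same-numbered pair for 1 member probe, the red line is the mean of 4 pairs, and the dotted line is the median of all probes tested, -0.005. Cd3g has the tightest pairs, and those of Cd3e run from -1.93 to 2.44.

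Sample number was tested as a second source of variation, since it is balanced between the genotypes and its differences are separate from the genotype difference. The test divides by the spread left after both. The choice of members by KO minus WT could have affected that spread, so their calls are not independent of that choice. Over all probes, a moderated F test in limma with genotype in the model called 1670 of 27118 (6.16%) for a difference among the 4 numbers. Among the members it called 3 of 13: Cd8a probe 1 (adjusted p = 0.0397), Cd3g (adjusted p = 0.0434) and Cd8a probe 2 (adjusted p = 0.0497). For Cd3g the averages of the pairs numbered 1 to 4 were 1.84, 2.27, 0.88 and 1.40, and for Cd8a probe 1 they were 2.03, 2.70, 0.93 and 1.85, with number 3 lowest for both. None of the 3 calls held when any 1 array was left out, when the count over all probes was 0 to 584, nor with normexp correction, with no filter on dim probes or without genotype in the model.

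Number took 80.0% of the variance of Cd3g, 84.7% of that of Cd8a probe 1 and 80.0% of that of Cd8a probe 2, but 20.9% for Cd4 and 19.7% for Cd8a probe 3. The median over the members was 53.7%, against 65.8% over all probes, where equal division by degrees of freedom would give number 42.9%. Genotype took a median of 28.0% over the members, against 5.05% over all probes, where its 1 degree of freedom of 7 would give 14.3% by equal division. The members' share for genotype belongs to the contrast that chose them.

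The first slide exceeded the second for 12 of 13 member probes, by 0.12 for Cd8a probe 3 to 1.28 for Cd247 probe 3, and Cd4 differed by -0.17. Among all probes 48.6% were higher on the first slide. The highest of the 8 arrays was KO 2 for 6 member probes, KO 1 for 5 and WT 2 for Cd3e and Cd4, all on the first slide, and WT 3 was the lowest for 7. Within slides, Cd3d differed by 0.67 on the first and 0.66 on the second, Cd3g by 0.53 and 0.49, Zap70 by 0.67 and 0.87, and Cd4 by -0.54 and -0.34, each KO minus WT. Whether the slide or the samples on it set these levels was not tested.

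Over the 8 arrays most members varied together, which is given as a description because all points share the array, its scaling and its cells. The 78 pairs of member probes had a median Pearson r of 0.68, and 15 pairs were above 0.9. Cd3d and Lat had 0.98, Cd3g and Cd8a probe 1 had 0.97, and Cd3d and Cd3g had 0.96. These values include the KO minus WT difference that chose the members, and with each group centred on its own mean the median r was 0.59. The probes least like the rest were Cd4, with a median r of -0.24 to the other 12 (0.04 within groups), Cd3e with 0.36 (0.42), Cd8a probe 3 with 0.43 (0.29) and Cd247 probe 3 with 0.44 (0.20). Of the 11 pairs with a negative r, 10 involved Cd4, and within groups 6 of 10 did. Cd4 and Zap70 had -0.51, and -0.31 within groups, while Cd4 and Lat had -0.21, and 0.18 within groups. Cd3e correlated at 0.38 with Cd3d, at 0.28 with Cd3g and at 0.58 with Cd4.

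The genes outside the complex were ranked by Pearson r over the 8 arrays with the mean of Cd3d, Cd3e, Cd3g and Cd247. Each was read from its brightest probe, centred on its own mean but not scaled, so probes that varied most weighed most. The members' own r with that mean ran from 0.07 for Cd4 to 0.95 for Cd247, with 0.66 for Zap70 and 0.74 for Cd3e. That mean was 0.73, 0.87, -0.44 and -0.01 in KO, against -0.92, 0.67, -0.77 and -0.13 in WT. Of 13444 named genes, 16 outside the complex exceeded 0.9. With 8 arrays and so many genes, some unrelated genes would exceed it by chance, and how many was not tested. The first 8 that were not members were Ganab (0.97), Borcs5 (0.96), Ctla4 (0.94), Icos (0.94), Serpinb9 (0.93), Atp2c2 (0.92), Tbx21 (0.92) and Tgif1 (0.92). Ctla4 and Icos encode an inhibitory and an activating receptor of the CD28 family on T cells, and Tbx21 encodes T-bet, the transcription factor of type 1 helper and cytotoxic cells. Ganab, Borcs5, Serpinb9, Atp2c2 and Tgif1 were on none of the gene lists read here. Ganab, at the top of the ranking, ranged only from 3.84 to 3.96, so a high r there covers a very small change. Ctla4 read -0.22, 0.11, -2.12 and -1.24 in KO, against -2.69, -1.28, -3.11 and -1.72 in WT.

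Genes that work beside the complex were read from lists chosen for their roles, and limma called none of them. Of 6 T cell receptor constant chain genes none had a probe by accession. Of 23 proximal signalling partners, 19 passed the filter, 14 were higher and 5 lower in KO, and the median difference was 0.25. Lcp2, the adaptor SLP-76 that LAT recruits, differed by 0.10 (SE 0.24), Skap1 by 0.51 (SE 0.32) and the kinase gene Txk by -0.20 (SE 0.53). Lcp2 is also expressed in myeloid cells, and it read 3.86 to 4.53 in KO and 3.70 to 4.38 in WT. Of 15 T cell surface genes, 11 were higher in KO and the median was 0.48, with Cd2 at 0.60 (SE 0.42), Cd5 at 0.48 (SE 0.25), Cd28 at 0.37 (SE 0.33) and Thy1 at 0.20 (SE 0.47). The 4 lower ones, named after their values were seen, were Il7r at -0.65 (SE 0.45), Cd6 at -0.62 (SE 0.25), Slamf1 at -0.22 (SE 0.26) and Ly9 at -0.07 (SE 0.36). All 8 T cell transcription factors that passed the filter were higher in KO, with a median of 0.51. Bcl11b differed by 1.83 (SE 0.95), Tcf7 by 0.70 (SE 0.59), Gata3 by 0.22 (SE 0.91) and Tox by 0.85 (SE 0.52). The Bcl11b probe read -6.39 on WT 1 and -7.68 on WT 4, near the limit of the arrays, like Cd247 probe 3 on WT 4 (-7.93). Themis, Ubash3a and Lef1, which are also T cell genes, were each well above background on 1 KO and 0 WT arrays. Of the listed genes of other cells that also missed the filter, Blk was so on 0 KO and 1 WT arrays. Ms4a2 and Tek were so on 0 KO and 0 WT arrays.

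Markers of other cells were read beside the members, none was called, and their part in the members' values was not tested. Of 12 NK and cytotoxic cell markers, 11 were higher in KO, with a median of 0.59. The log2 of their summed signal was 3.34 to 5.29 in KO and 2.94 to 4.36 in WT, lowest on KO 3 and WT 3. Cd3d and Cd3g were lowest there too, as were the summed T cell surface, T cell transcription factor, mast cell, endothelial and epithelial lists. Gata3 made up much of the transcription factor sum on some arrays. It read 3.83 on KO 4 and 3.79 on WT 4, where the sums were 4.42 and 4.35. The epithelial gene Krt8 was also highest on KO 4 and WT 4 within its groups, at 4.96 and 4.91. Whether the Gata3 signal came from T cells was not tested. The summed macrophage markers were highest on KO 3 and WT 3, at 8.38 and 8.36. The NK receptor gene Ncr1 differed by 0.10 (SE 0.80) and was well above background on 3 KO and 3 WT arrays, Klrb1c differed by 1.31 (SE 0.70), Nkg7 by 0.52 (SE 0.39) and Gzma, which encodes granzyme A, by 1.21 (SE 0.70). Among 7 B cell markers, 4 were higher in KO, and the summed log2 signal was 1.05 to 2.17 in KO and 0.59 to 1.70 in WT. Their median difference was 0.30. Ms4a1, which encodes CD20, differed by 1.66 (SE 0.72), Cd79a by 0.61 (SE 0.88) and Cd79b by 0.30 (SE 0.42). The 3 lower ones, named after their values were seen, were Pax5 at -0.50 (SE 0.24), Cd22 at -0.23 (SE 0.32) and Fcrla at -0.02 (SE 0.53).

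The 10 macrophage markers had a median difference of -0.06, with 2 higher and 8 lower in KO, and a summed log2 signal of 7.31 to 8.38 in KO and 7.27 to 8.36 in WT. Csf1r, the receptor for the macrophage growth factor, differed by -0.09 (SE 0.40), Itgam by -0.03 (SE 0.43), Adgre1 by -0.07 (SE 0.38) and Ptprc by -0.10 (SE 0.36). The list counts Ptprc, although its product CD45 is also on T cells. Among 7 dendritic cell markers, some of whose cells express Cd4 or Cd8a, 3 were higher and 4 lower, with a summed log2 signal of 3.91 to 5.14 in KO and 4.22 to 5.17 in WT. That sum was almost all Itgax, at 3.82 to 5.09 in KO and 4.13 to 5.04 in WT. Which of the sorted cells gave the Itgax signal was not tested. Flt3 differed by -0.20 (SE 0.51) and Xcr1 by -0.32 (SE 0.28), while Cd209a was well above background on 3 KO and 2 WT arrays and Siglech on 4 KO and 1 WT arrays, so no difference is given for them. The 4 mast cell markers were higher in KO with a median of 0.56, the 7 endothelial markers lower with a median of -0.96, and the 8 epithelial markers had a median of 0.04. These counts and medians include Cd209a and Siglech, both higher in KO, and Fcer1a and Sox17, whose detection is given below. Siglech was detected mainly on KO arrays and Sox17 mainly on WT arrays.

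The mast cell genes Cpa3, Mcpt4 and Tpsb2 differed by 0.64, 0.26 and 0.53, with SEs of 1.21, 0.96 and 1.16, and Fcer1a was well above background on 3 KO and 2 WT arrays. Of the endothelial genes, Tie1, well above background on 3 KO and 4 WT arrays, differed by -1.64 (SE 0.87), Cdh5 by -0.96 (SE 0.66) and Kdr by -0.16 (SE 0.43), and Sox17 was well above background on 1 KO and 3 WT arrays. The epithelial keratins Krt8 and Krt18 differed by -0.12 (SE 0.92) and 0.07 (SE 0.77), Epcam by 0.11 (SE 0.91) and Cdh1 by 0.19 (SE 0.46). Epithelial markers ranged widely within both groups, with a summed log2 signal of 3.72 to 6.77 in KO and 3.65 to 6.77 in WT, lowest on KO 3 and WT 3.

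**Figure D4:**
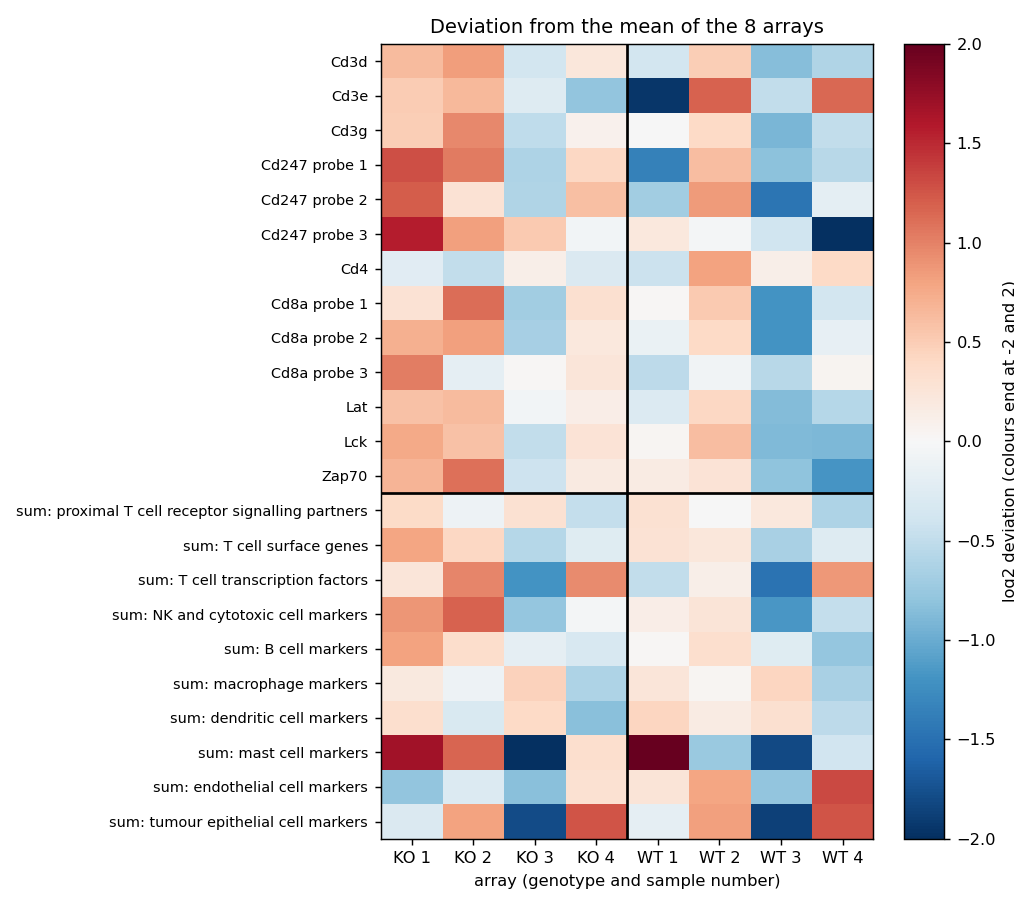
Rows are the 13 member probes and, below the line, the summed signal of 10 marker lists, and columns are the arrays, KO left of WT. Colour is the log2 deviation from the mean of the 8 arrays, with red for higher. Most member rows are red on KO 1 and KO 2 and blue on KO 3 and WT 3, a pattern that the Cd4 row does not share.

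The size of the members' differences depended on how background was handled. With normexp correction of the median signal, Cd3d, Cd3g and Cd8a probe 1 stood at 0.73, 0.63 and 0.52. Lat, Cd8a probe 2, Zap70, Lck and Cd247 probe 1 shrank to 0.32, 0.20, 0.17, 0.13 and 0.03, and Cd4 stood at -0.74. There the sign turned for Cd3e (-0.58), Cd247 probe 2 (-0.35), Cd247 probe 3 (-0.34) and Cd8a probe 3 (-0.22). Quantile scaling and scaling to the median of bright probes left 12 of 13 higher in KO, against 51.6% and 49.4% of all probes. In the authors' deposited table of processed intensities, 11 of the 11 members it holds were higher in KO, against 50.9% of all probes. Cd4 and Cd8a probe 3 were not among those 11.

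**Figure D5:**
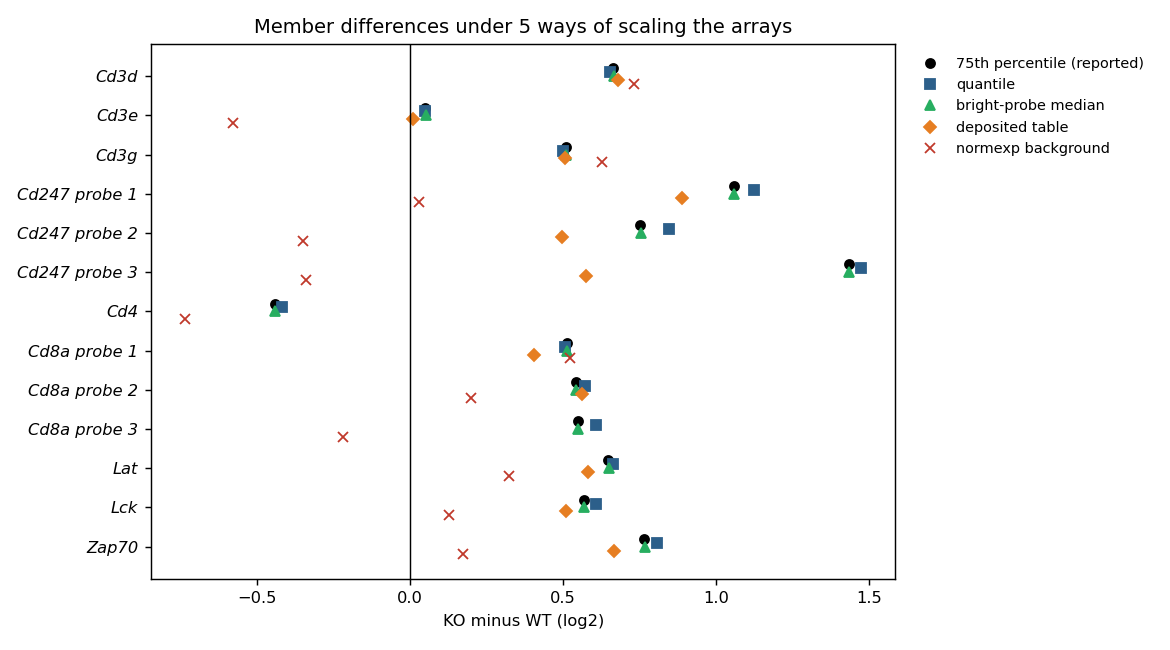
Each marker is the KO minus WT difference (log2) of 1 member probe under 1 of 5 scalings. The crosses, for normexp background correction, lie left of the other scalings for most probes, and below 0 for Cd3e, Cd247 probes 2 and 3, Cd4 and Cd8a probe 3.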

How the data were processed

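Cy3-labelled RNA of 8 samples was hybridised to 1-colour Agilent arrays, 4 to a slide. Per the file headers, the authors extracted spots with Agilent Feature Extraction 10.7.1.1, whose processed signal intensity is already background-corrected. The submitters' processing notes name version 10.5. A second deposited table holds intensities processed by the authors, with medians of 92.0 to 94.0 per array and a scale that no source used here states.

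From the scanner files, control and outlier-marked spots (1 of the members') were left out, and 0 spots were saturated. The processed signal was taken to log2, averaged over a probe's spots and set relative to each array's 75th percentile. Probes well above background on at least 4 arrays were kept, 27118 of 41174. Accessions were named through RefSeq (GRCm38.p6), which named 25097 probes. The headers give the mm9 build, from which no coordinate was used. Genotypes, and sample numbers with genotype in the model, were fitted with limma (3.58.1, R 4.3.3), and two-sided p-values were adjusted by Benjamini-Hochberg and called under 0.05. The fits were tested on simulated data whose noise was independent between arrays. The genotype simulation held no sample-number term, unlike the real arrays, so it does not check the fit under that shared variation. For listed genes the brightest kept probe was used, and the first 4 kept genes of each list are named with values, apart from some that are not reported here. The number of arrays limits the precision.

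Members and lists were chosen with earlier results of these data known. Deviations of same-numbered samples from their group means correlated at 0.30, 0.13, 0.70 and 0.51 for numbers 1 to 4, all above the limit of 0.1 set for taking the numbers as pairs. Number 2 is the least clear, since KO 4 with WT 2 gave 0.15 and KO 2 with WT 4 gave 0.14. The pairing comes from the data, since the labels do not say what a number shares. Alternatives covered background, scaling, filter, deposited table, slide, pairing, variance model, array weights, probe choice and left-out samples.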

Additional observations from a re-analysis of the deposited data

How the results depend on the processing

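No probe was called between KO and WT in the reported limma fit or any alternative run, where the smallest adjusted p was 0.0671 (without KO 1). With the replicate block that pairs same-numbered samples, 0 probes were called and 1988 had an unadjusted p under 0.05, against 912 without it. The block changed no call among the members. Leaving out 1 sample gave 11 to 12 member probes higher in KO, against 46.4% to 52.6% of all probes. It gave a median difference of the members of 0.39 (without WT 3) to 0.87 (without WT 2). It gave 0.28 for Cd3g without KO 2, 0.39 for Cd247 probe 2 without WT 3, 0.50 for Zap70 without WT 4, and turned the sign of Cd3e without KO 1, KO 2, WT 1 or WT 3. Leaving out both samples of a number, chosen after seeing the data, gave a median of 0.52 to 0.76. The number of probes called by sample number was 1670 as reported, 325 with normexp, 476 with no filter, 3092 with a filter for all 8 arrays, 2548 in the deposited table, 4715 with a trended robust variance and 2842 without the genotype term. It was 0 to 584 when 1 sample was left out. Of the members it called 3 with the stricter filter and in the deposited table, 4 with the trended variance, and 2 with quantile scaling, the bright-probe scale, array weights or 1 probe per gene. The cause of these changes was not tested, apart from the fewer samples. Cd247 probe 1 differed by 0.03 under normexp. Cd247 probe 2 differed by -0.35 there. Signal near background limits Cd247 probe 3 most, and the lowest signals of probes 1 and 2 were 24.0 and 18.6 units.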
